A study of Mus musculus with 8 samples.

Results

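The genes described here are 33 genes of liver endothelium, the cells that line the sinusoids and larger vessels of the organ. They were chosen by name: every non-control probe whose gene name in the array files is one of the 33 symbols was taken, which gave 44 probes, and each gene was represented by its probe of highest mean signal. All 33 genes passed the filter for signal above background and stand among 14874 genes tested on the arrays. The genes fall into 12 that mark the sinusoidal endothelium, 19 that are general to endothelium and 2, Rspo3 and Plvap, that are associated with the veins of the liver. The study treated mice with adenoshRaly or control. The 8 arrays hold total RNA from liver of bl6 mice on chow, 12 weeks old, taken on day 6 after transduction with pblockITcontrol (4 control arrays) or pblockITshRaly (4 shRaly arrays), a short hairpin against the RNA-binding protein gene Raly, both at an amount of 2e+09 with no unit given. Which liver cells took up the virus is not given in the labels. The comparison asks how far the endothelial transcripts of the liver differ when Raly is knocked down.

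Liver sinusoidal endothelial cells form a thin, perforated lining without a continuous basement membrane. They clear waste proteins and immune complexes from the blood through scavenger receptors, and they release Wnt and bone morphogenetic protein (BMP) ligands that set hepatocyte zonation and hepcidin. Receptors for vascular endothelial growth factor (VEGF) and angiopoietin keep the lining alive and in shape, and adhesion proteins such as VE-cadherin join its cells. In bulk tissue, fewer cells of a type and less RNA per cell cannot be told apart.

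The probes that the results turn on most are those of 3 genes whose different probes gave different answers. The stretch shown for each is the start (30 of 60 bases) of the probe as printed in the array files, written 5′ to 3′, with coordinates on mouse build mm9. No letters are capitalised because no motif is marked.
Flt1, brighter probe, chr5:148373791-148373850, minus strand: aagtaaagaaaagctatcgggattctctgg
Flt1, dimmer probe, chr5:148446872-148446931, minus strand: ggagggtactgccgttcctgtgtggtattt
Kdr, brighter probe, chr5:76330395-76330454, minus strand: tgtttaaatggaagtggtcctgtcccggct
Kdr, dimmer probe, chr5:76329309-76329368, minus strand: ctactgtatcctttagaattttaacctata
Sox17, brighter probe, chr1:4481503-4481562, minus strand: ctcactgacttattccatttcttgaaagtg
Sox17, dimmer probe, chr1:4481038-4481097, minus strand: cccacttcccacaaaatttgcctttaattc
Whether a probe lies in a coding exon or a UTR was not analysed here, since no annotation of mm9 was used.

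Raly signal on the shRaly arrays was 51.8%, 80.9%, 58.3% and 62.7% of the control mean for replicates 1 to 4, and the control arrays ran from 84.3% to 112%. The limma adjusted p for Raly was 0.0749, which misses the threshold of 0.05. Between 45.9% and 51.1% of the spots on an array were well above background. Each percentage of control given for a gene is relative to the geometric mean of the 4 control arrays, after each array was scaled to its 75th percentile. All controls were in row 1 of the slide and all shRaly samples in row 2, and position and treatment therefore cannot be told apart.

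None of the 33 endothelial genes passed the adjusted threshold, in either direction (smallest limma adjusted p = 0.152). Over all genes tested, 1.22% were called, 0.914% lower and 0.309% higher. The mean of the shRaly arrays was below that of the controls for 28 of the 33 genes (84.8%), against 53.8% of all genes, and the median log2 fold change was -0.16, against -0.02. At an unadjusted p under 0.05, 9 members were lower (27.3%) and 0 higher, against 9.71% and 6.41% of all genes (16.1% in either direction). The 9 are Nrp1, Flt4, Flt1, Ptprb, Stab2, Gata4, Ehd3, Clec4g and Stab1. Flt1 is counted by its probe of highest signal, and its dimmer probe stood at 112% of control, the opposite direction. On single shRaly arrays, 25, 23, 26 and 28 of the 33 genes lay below the control mean, and on the control arrays 19, 7, 11 and 23. The count of 9 was 4 without control 2 (7.68% of all genes) and 4 without shRaly 4 (7.36% of all genes).

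For 3 members, Nrp1, Flt4 and Stab2, every shRaly array lay below every control array (9.09% of the members, against 6.45% of all genes), and for 0 members the reverse held (3.93% of all genes). With fewer arrays this count can only stay or grow: it was highest without control 4, at 11 members, where 8.91% of all genes were separated in that direction. With median scaling it was 7 members (6.92% of all genes) and with normexp background correction 5 (6.56%).

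**Figure D1:**
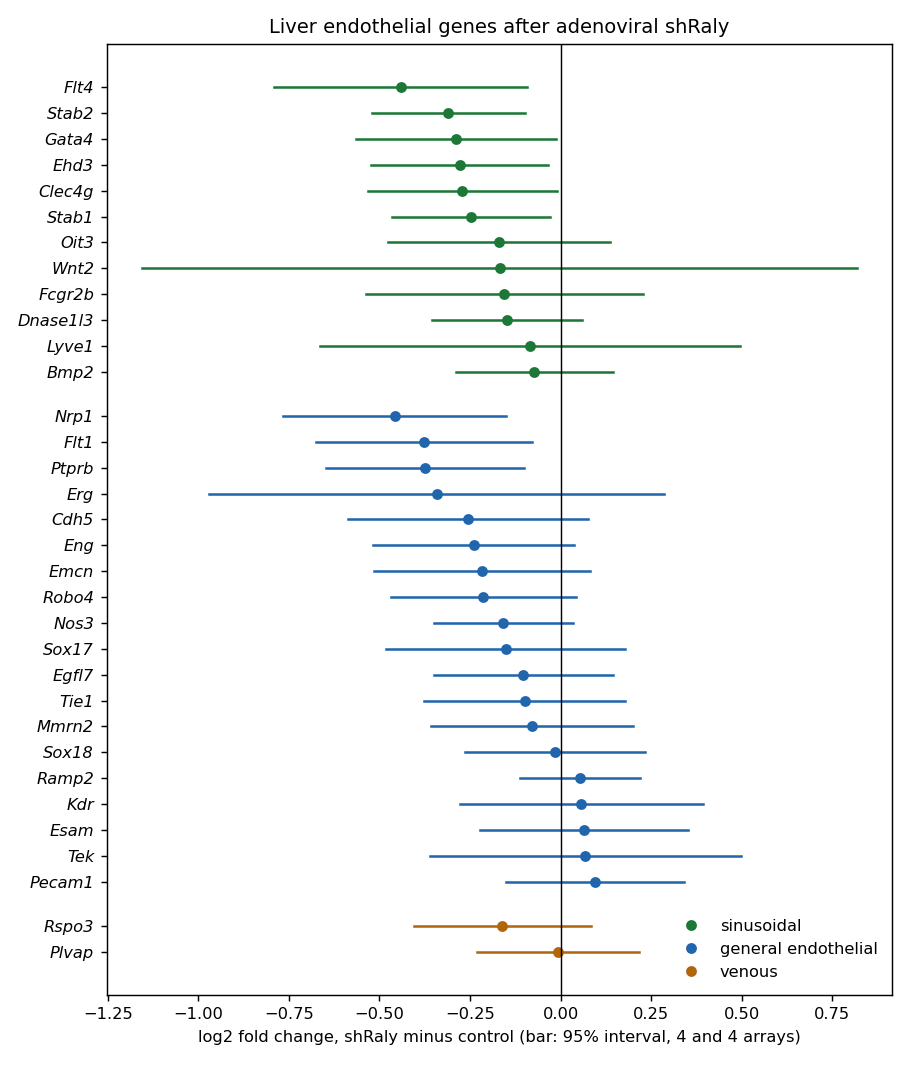
Log2 fold change (x axis, shRaly minus control) of the 33 endothelial genes (rows), with bars for the 95% interval from 4 control and 4 shRaly arrays. Green points are sinusoidal, blue general and orange venous genes. All 12 sinusoidal points and 14 of the 19 general points lie left of 0, and 9 intervals do not reach 0. Each gene is shown by its probe of highest signal only.

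All 12 sinusoidal genes had a mean below the control mean, with a median log2 fold change of -0.21 and a range of -0.44 to -0.07. Of the 19 general endothelial genes, 14 stood below and 5 above, with Kdr among the 5 by the probe of highest signal only, with a median of -0.15 and a range of -0.46 to 0.10. At an unadjusted p under 0.05, 6 of the 12 sinusoidal (50%) and 3 of the 19 general genes (15.8%) were lower, against 9.71% of all genes. The 3 include Flt1, whose dimmer probe went the other way. The array medians of the sinusoidal genes, relative to the control mean, were -0.07, 0.11, -0.01 and -0.06 on control 1 to 4 and -0.38, -0.27, -0.20 and -0.21 on shRaly 1 to 4. The groups did not overlap. Nor did the array medians of all 33 genes together, at -0.08 to 0.10 on the controls and -0.22 to -0.11 on the shRaly arrays. The array medians of the general genes were -0.08, 0.07, 0.07 and -0.12 on the controls and -0.12, -0.04, -0.22 and -0.22 on the shRaly arrays. Here shRaly 2 lay among the controls, so the groups overlapped. The difference between the class medians was -0.06 on the log2 scale. It ranged from -0.14 to -0.07 when single arrays were left out, and it is given without a test because the genes were chosen with earlier results known.

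The summed signal of the 12 sinusoidal genes, which weights the brightest probes most, was 96.8% to 106% of the control mean on the control arrays and 76.6% to 92.7% on the shRaly arrays. That of the 19 general genes was 93.0% to 106% on the controls and 81.7% to 96.3% on the shRaly arrays, so the groups overlapped again. For all 33 genes together it was 95.4% to 105% on the controls and 84.2% to 90.8% on the shRaly arrays, without overlap.

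**Figure D2:**
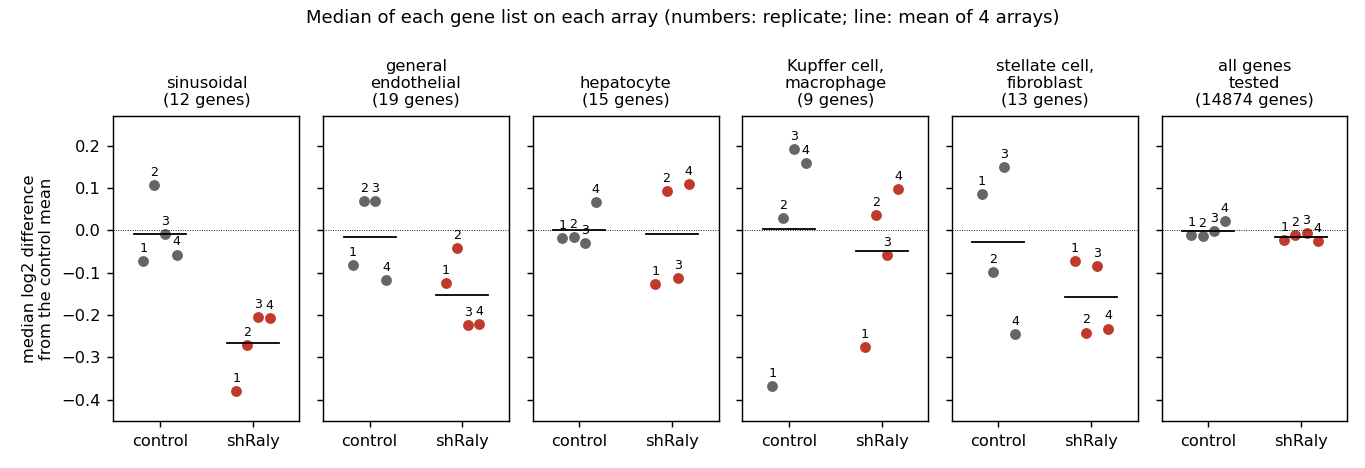
Median log2 difference from the control mean (y axis) of each gene list on each of the 8 arrays, with replicate numbers beside the points and lines for the mean of 4 arrays. The sinusoidal medians of the shRaly arrays (-0.38 to -0.20) lie below all controls (-0.07 to 0.11), while the general endothelial, hepatocyte, Kupffer cell and stellate cell medians overlap between the groups. Lymphocyte and cholangiocyte genes are not drawn. The lymphocyte medians were -0.07 to 0.17 on the controls and -0.24, 0.06, -0.20 and -0.26 on shRaly 1 to 4. Only shRaly 2 lay within the control range there.

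Lists for the other cell types of the liver were measured beside these genes. The 15 hepatocyte genes tested had a median log2 fold change of -0.01, with array medians of -0.03 to 0.07 on the controls and -0.13 to 0.11 on the shRaly arrays, and a summed signal of 95.8% to 106% and 83.2% to 106%. Kupffer cell and macrophage genes (9 of 11 on the array tested) had a median of -0.06, with array medians of -0.37 to 0.19 and -0.28 to 0.10. Their summed signal ran from 74.0% to 111% on the controls and from 88.1% to 107% on the shRaly arrays. Stellate cell and fibroblast genes (13 of 13) had a median of -0.12, with array medians of -0.25 to 0.15 and -0.24 to -0.07 and a summed signal of 91.0% to 108% and 90.8% to 109%. Lymphocyte genes (9 of 10) had a median of -0.18, with array medians of -0.07 to 0.17 and -0.26 to 0.06. Their summed signal was 88.6% to 124% on the controls and 55.2% to 94.1% on the shRaly arrays, a sum carried mostly by Cd4, the brightest of the 9 probes, at 59.3% of control. Of the other lymphocyte genes, Cd3d, Nkg7 and Cd8a stood above control, at 121%, 103% and 109% (these 4 genes are named after their values were seen). Cholangiocyte genes (6 of 7) had a median of -0.16, with array medians of -0.33 to 0.34 and -0.25 to 0.07 and a summed signal of 61.3% to 171% and 75.7% to 98.8%. In each of these lists 0 genes passed the adjusted threshold. At an unadjusted p under 0.05, 9.71% of all genes were lower and 6.41% higher. The counts lower and higher were 3 (20%) and 1 (6.67%) for hepatocytes and 2 (15.4%) and 1 (7.69%) for stellate cells. They were 3 (33.3%) and 0 for lymphocytes, and 0 and 0 for both Kupffer cells and cholangiocytes. Genes of these lists that were not tested because their signal was too low were Timd4 and Cd163 (Kupffer cells), Cftr (cholangiocytes) and Klrb1c (lymphocytes). The medians of all these lists were below 0 like the endothelial ones. Those of Kupffer cells (-0.06) and hepatocytes (-0.01) were nearest to 0, and that of all genes was -0.02. The part of these cell types in the endothelial values was not tested.

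All 6 scavenger and endocytic receptors of the sinusoid stood below control, with a median log2 fold change of -0.26, and 4 of them had an unadjusted p under 0.05. Stab2, the stabilin that takes up hyaluronan and other waste macromolecules, had signals of 89.5%, 107%, 105% and 99.8% of the control mean on control 1 to 4 and 73.9%, 81.7%, 86.8% and 81.0% on shRaly 1 to 4. The highest shRaly array was thus just below the lowest control. Its probe lies at chr10:86303982-86304041 on mm9, minus strand. On average Stab2 stood at 80.7% of control (95% interval 69.7% to 93.5%), with a log2 fold change of -0.31 (SE 0.09, n = 4 and 4, limma adjusted p = 0.157). Its other probes gave 83.3% and 86.6% of control, the same direction, with overlapping groups.

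Stab1, the related scavenger receptor, had 103%, 108%, 96.5% and 92.6% on the controls and 95.9%, 80.4%, 80.2% and 81.5% on the shRaly arrays. Only shRaly 1 lay within the control range, and Stab1 averaged 84.3% (limma adjusted p = 0.257, log2 fold change -0.25, SE 0.10). Clec4g, a C-type lectin of the sinusoidal endothelium also called LSECtin, had 100.5%, 105%, 99.3% and 95.9% on the controls and 69.8%, 78.3%, 98.9% and 87.2% on the shRaly arrays. The controls were close together, and shRaly 3 alone stood within their range. Clec4g averaged 82.9% (limma adjusted p = 0.293, log2 fold change -0.27, SE 0.12).

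Ehd3, an EH-domain protein of endocytic recycling, had 108%, 113%, 96.8% and 84.8% on the controls and 80.1%, 88.8%, 82.2% and 79.1% on the shRaly arrays. It averaged 82.4% (limma adjusted p = 0.253, log2 fold change -0.28, SE 0.11), and shRaly 2 lay above the lowest control. Fcgr2b, the inhibitory Fc receptor that sinusoidal cells use to clear immune complexes, averaged 89.8% (interval 68.9% to 117%), with a control range of 77.2% to 116% and a shRaly range of 72.2% to 113%. Its probe is printed in 10 spots per array whose SD within an array was 0.04 to 0.09 on the log2 scale. Lyve1, the hyaluronan receptor shared by sinusoidal and lymphatic endothelium, varied most among the scavenger receptors, from 74.2% to 121% on the controls and from 64.4% (shRaly 1) to 148% (shRaly 2). Its mean of 94.3% has an interval of 63.2% to 141%, so smaller differences were not detectable with 4 arrays a group.

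The receptors for VEGF held the largest differences and the clearest disagreement between probes. Nrp1, a co-receptor that binds VEGF and semaphorins, had signals of 83.8%, 128%, 106% and 87.8% on control 1 to 4 and 75.9%, 70.9%, 71.0% and 73.6% on shRaly 1 to 4. The shRaly arrays were close together and all below every control. The Nrp1 probe lies at chr8:131026650-131026709, plus strand, and that of Flt4 at chr11:49465646-49465705, plus strand, on mm9. Nrp1 averaged 72.8% of control (interval 58.8% to 90.1%, log2 -0.46, SE 0.14, limma adjusted p = 0.152), the lowest value among the 33 genes. Flt4, VEGF receptor 3, which sinusoidal cells share with lymphatic endothelium, had 106%, 117%, 92.7% and 87.1% on the controls and 56.2%, 80.3%, 86.8% and 75.1% on the shRaly arrays. The gap between the groups was small, with shRaly 3 at 86.8% and control 4 at 87.1%. Flt4 averaged 73.6% (log2 -0.44, SE 0.15, limma adjusted p = 0.21), and with normexp background correction the log2 fold change was -0.11.

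Flt1, VEGF receptor 1, gave opposite values with the probes shown above. The brighter probe had 91.9%, 104%, 109.9% and 95.4% on the controls and 97.1%, 68.4%, 78.7% and 67.2% on the shRaly arrays, an average of 77.0% (log2 -0.38, SE 0.13, limma adjusted p = 0.211). The dimmer probe, whose site lies 73081 bases away and which the files list under an Ensembl transcript in place of the RefSeq one, averaged 112% (log2 0.16, SE 0.13). Subtracting one probe from the other within each array removes any scaling of the array. That log2 difference was 3.40, 3.47, 3.31 and 3.40 on the controls and 2.94, 2.68, 3.12 and 2.68 on the shRaly arrays, so the groups did not overlap. The change in the difference was -0.54 (two-sided exact permutation p = 0.0286, the smallest that 4 against 4 arrays allow; 0.157 after adjustment over the 11 probe pairs). A further probe for Flt1 was well above background on 0 of the 8 arrays.

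Kdr, VEGF receptor 2, also depended on the probe. The probe chosen by the rule had 79.4%, 102%, 104% and 119% on the controls and 116%, 113%, 85.0% and 105% on the shRaly arrays, and averaged 104% (limma adjusted p = 0.888, log2 fold change 0.06, SE 0.15). The other probe, 1086 bases away and printed in 10 spots per array, averaged 83.1% (log2 -0.27, SE 0.10, unadjusted p = 0.028 in a limma fit over all 19861 probes, adjusted p = 0.264). The SD of its 10 spots within an array was 0.05 to 0.08 on the log2 scale. The difference between the Kdr probes changed by 0.32 on the log2 scale, with overlapping groups (exact permutation p = 0.0857, two-sided; adjusted 0.314). Kdr is therefore given with no direction.

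**Figure D3:**
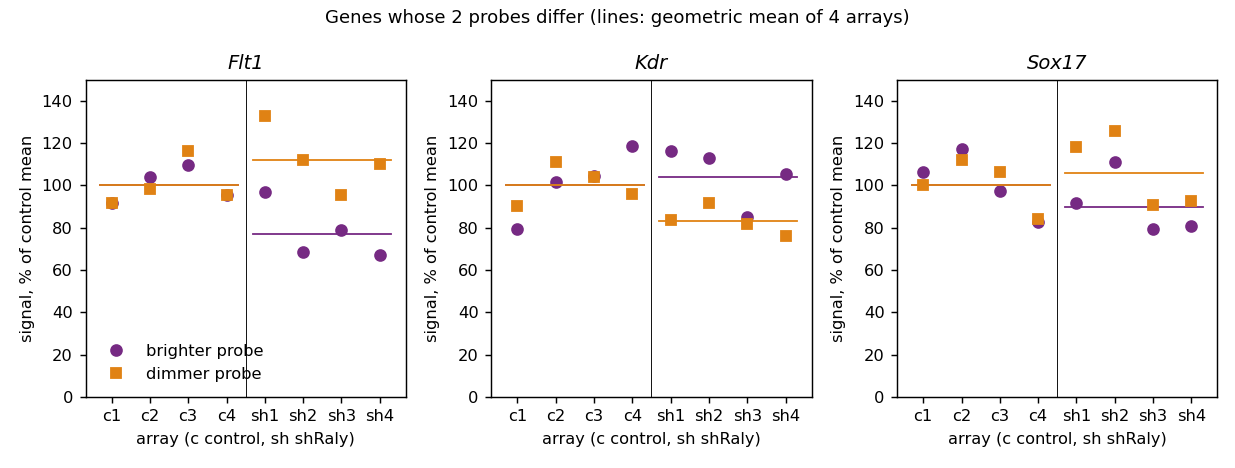
Signal in percent of the control mean (y axis) on the 4 control and 4 shRaly arrays (x axis) for the brighter probe (purple circles) and the dimmer probe (orange squares) of Flt1, Kdr and Sox17, with lines for the geometric mean of each group. The shRaly means of the probes lie apart, at 77.0% and 112% for Flt1, 104% and 83.1% for Kdr and 90.0% and 106% for Sox17.

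Among the angiopoietin receptors and their phosphatase, Ptprb, the phosphatase VE-PTP that acts on Tie2 and VE-cadherin, stood lowest. It had 107%, 107%, 106% and 82.3% on the controls and 83.4%, 85.1%, 69.7% and 71.6% on the shRaly arrays. Control 4 lay apart from the other controls and among the shRaly values. Ptprb averaged 77.2% (interval 63.8% to 93.3%, log2 -0.37, SE 0.12, limma adjusted p = 0.182), and its other probes stood at 77.6% and 89.4%. Tie1, the orphan receptor of the family, averaged 93.4% of control. Tek, which encodes the angiopoietin receptor Tie2, averaged 105% (interval 77.8% to 141%) and owed its direction to shRaly 3 at 158%, without which the log2 fold change was -0.13.

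The proteins of junctions and the cell surface had small differences, with a median log2 fold change of -0.08 over 7 genes and 0 at an unadjusted p under 0.05. Cdh5, VE-cadherin, averaged 83.8% of control (interval 66.6% to 105%), with shRaly values of 73.6% to 90.9% and control 1 at 74.8% among them. Robo4, a roundabout receptor of endothelium, averaged 86.3%, Emcn, the sialomucin endomucin, 86.0% and Mmrn2, an extracellular matrix glycoprotein of vessels, 94.7%. Esam, a tight-junction adhesion molecule, averaged 105% and Pecam1, CD31, 107%, with intervals that run from 85.7% to 128% and from 90.2% to 127%. Plvap, which forms the diaphragms of fenestrae, averaged 99.5% (interval 85.2% to 116%), and its second probe 100.2%. The general endothelial genes with a mean above control were Pecam1, Esam, Tek and Ramp2, and Kdr with its brighter probe only; all of these intervals include a difference of 0.

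The 3 angiocrine ligands, through which the endothelium acts on hepatocytes, had a median log2 fold change of -0.16, with 0 at an unadjusted p under 0.05. Bmp2, which signals to hepatocytes to raise hepcidin, had 91.6%, 93.6%, 103% and 113% on the controls and 91.2%, 91.7%, 100.2% and 97.7% on the shRaly arrays. The groups overlapped, and the mean was 95.1% (interval 81.9% to 111%). Rspo3, an R-spondin that strengthens Wnt signalling around the central vein, averaged 89.5% (interval 75.6% to 106%). Wnt2, a Wnt ligand of pericentral sinusoids, was well above background on 2 control and 2 shRaly arrays. Its values ran from 67.6% to 161% on the controls and from 49.8% to 195% on the shRaly arrays, and the interval of its mean was 44.9% to 176%.

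The signalling genes Eng, Nos3, Egfl7 and Ramp2 had 0 members at an unadjusted p under 0.05. Eng, the endoglin co-receptor for BMP9, averaged 84.7% (interval 69.9% to 103%), and Nos3, endothelial nitric oxide synthase, averaged 89.6% (interval 78.5% to 102%). The second Nos3 probe, 402 bases away and printed in 10 spots, gave 87.8%. Egfl7, a protein secreted by endothelium, averaged 93.1%. Ramp2, the partner of the adrenomedullin receptor, was the most precisely measured of the 33 genes, at 99.0% to 101% on the controls and 101% to 109% on the shRaly arrays, with a mean of 104% (interval 92.5% to 116%).

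Of the transcription factors, Gata4, which specifies sinusoidal identity and is also expressed by other liver cells, had 120.2%, 95.1%, 102% and 85.7% on the controls and 86.2%, 84.2%, 72.0% and 86.0% on the shRaly arrays. It averaged 81.9% (log2 -0.29, SE 0.12, limma adjusted p = 0.288), and control 4 lay among the shRaly values. Erg, an ETS factor that maintains endothelial identity, averaged 78.9% with an interval of 51.0% to 122%, and its log2 fold change was 0.10 with normexp background correction. Sox18 averaged 99.0%. Sox17 averaged 90.0% with the brighter probe and 106% with the dimmer, 465 bases away. The log2 difference between the Sox17 probes was 0.91, 0.89, 0.69 and 0.79 on the controls and 0.46, 0.64, 0.63 and 0.63 on the shRaly arrays, without overlap (exact permutation p = 0.0286, two-sided; 0.157 adjusted over the 11 pairs). The secreted sinusoidal proteins Oit3 and Dnase1l3, the second a DNase that clears DNA from the blood, averaged 88.9% and 90.3%.

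In all, 7 members had more than 1 probe past the filter, which gave 11 probe pairs. In 4 of the 11 pairs the log2 fold changes had opposite signs: Flt1, Kdr, Sox17 and Plvap, the last with both values within 0.01 of 0. The pairs of Stab2, Ptprb and Nos3 had the same sign throughout.

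Promoter windows of 17 of the 33 genes, 21 in all, were examined in RefSeq sequence (build GRCm38.p6), and those of the other genes were not analysed here. The window examined was the 250 bases before the start. Binding motifs of 3 factor families were searched on both strands: AGGAAG for ETS factors, AGATAA for GATA factors and AACAAT for SOX factors, and no matches of different motifs overlapped in these windows. The ETS letters stood in 12 of the 21 member windows (57.1%), against 29.5% of 32851 windows of all genes. The GATA letters stood in 1 window (4.76%, against 9.99%) and the SOX letters in 3 (14.3%, against 9.42%). Windows of the same gene are not independent, and a match is a description of letters. The promoters of the 3 genes whose arrays did not overlap are shown with matches in capitals; Nrp1 and Stab2 hold 1 ETS match each and Flt4 none.
Nrp1, chr8:128358823-128359072, plus strand: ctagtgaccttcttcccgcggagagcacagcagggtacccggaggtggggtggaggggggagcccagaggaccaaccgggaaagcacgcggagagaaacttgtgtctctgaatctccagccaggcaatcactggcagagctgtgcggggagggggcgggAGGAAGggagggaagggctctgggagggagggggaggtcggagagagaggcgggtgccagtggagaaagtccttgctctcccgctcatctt
Flt4, chr11:49609429-49609678, plus strand: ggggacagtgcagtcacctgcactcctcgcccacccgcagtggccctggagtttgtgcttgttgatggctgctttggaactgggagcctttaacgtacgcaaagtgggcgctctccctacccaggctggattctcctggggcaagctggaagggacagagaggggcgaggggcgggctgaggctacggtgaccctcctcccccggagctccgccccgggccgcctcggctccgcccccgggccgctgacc
Stab2, chr10:87007943-87008192, minus strand: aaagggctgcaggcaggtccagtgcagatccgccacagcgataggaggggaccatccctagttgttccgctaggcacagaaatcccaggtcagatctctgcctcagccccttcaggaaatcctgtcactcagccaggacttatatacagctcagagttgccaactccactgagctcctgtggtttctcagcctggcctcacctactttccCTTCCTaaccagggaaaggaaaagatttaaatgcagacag

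Around these receptors, 32 genes for their ligands, the BMP and Notch pathways and endothelial regulators were listed, and 29 were tested. Of these, 0 passed the adjusted threshold. At an unadjusted p under 0.05, 7 were lower (24.1%) and 1 higher (3.45%), against 9.71% and 6.41% of all genes. Every shRaly array lay below every control array for 2 of them (6.90%, against 6.45% of all genes), and the reverse held for 0. The median log2 fold change of the 29 genes was -0.04. The lowest was Id3, a target of BMP signalling that is expressed in several liver cell types. It had 118%, 76.3%, 106% and 105% on the controls and from 38.1% (shRaly 4) to 69.8% (shRaly 2) on the shRaly arrays, with no overlap. Id3 averaged 48.9% (limma adjusted p = 0.0525, log2 fold change -1.03, SE 0.20), just outside the threshold. Smad7, an inhibitory SMAD induced by BMP and TGF-beta signals, averaged 61.0% (log2 -0.71, SE 0.23, limma adjusted p = 0.18) with no overlap, and Tal1, a transcription factor of blood and endothelium, 80.2% (log2 -0.32, SE 0.11, limma adjusted p = 0.194). Named after their values were seen, the other 4 genes lower at an unadjusted p under 0.05 were Smad6 at 75.9% of control, Bmp6, an endothelial ligand that raises hepcidin, at 77.6%, Vegfa at 80.8% and Nrp2 at 86.5%. The 1 higher was Klf2, the shear-stress factor, at 159%. A second Nrp2 probe gave a log2 fold change of 0.57 (SE 0.73), the opposite direction and imprecise. A second Vegfa probe gave -0.18 (SE 0.13), the same direction as the first. The receptors for BMP9, Acvrl1 and Bmpr2, stood at 99.7% and 90.8% and the ligand Gdf2, BMP9 itself, at 116%.

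A further list held 17 genes of other vessels and of endothelial activation, of which 14 were tested, with a median log2 fold change of 0.06. At an unadjusted p under 0.05, 2 were higher (14.3%) and 0 lower, against 6.41% and 9.71% of all genes, and 0 passed the adjusted threshold. For 1 gene every shRaly array lay above every control array, as for 3.93% of all genes. Efnb2, the arterial ephrin, had 98.4%, 79.6%, 127% and 100.2% on the controls and 172%, 165%, 151% and 148% on the shRaly arrays, without overlap. It averaged 159% (log2 0.67, SE 0.14, limma adjusted p = 0.0645). Vcam1, an adhesion molecule of activated endothelium and of other liver cells, averaged 155% (log2 0.64, SE 0.19, limma adjusted p = 0.154). Its second probe gave 0.63 (SE 0.12), with a limma adjusted p of 0.0477 over all probes, a value looked at after the first was known. Thbd, thrombomodulin, averaged 142% (limma adjusted p = 0.386).

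**Figure D4:**
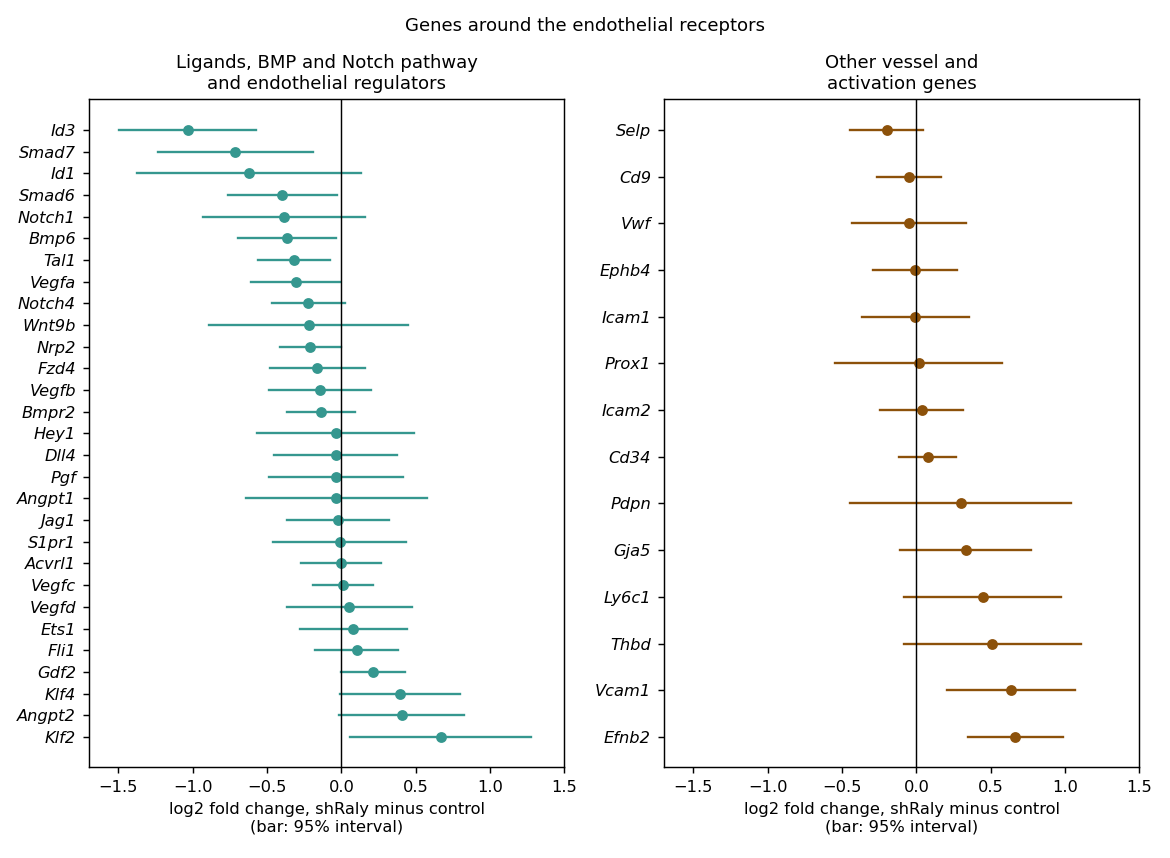
Log2 fold change (x axis, shRaly minus control) with 95% intervals for the 29 ligand and pathway genes (left) and the 14 genes of other vessels and activation (right). Id3 (-1.03) and Efnb2 (0.67) lie farthest from 0 in their panels.

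The precision of the arrays bounds what could be seen in the 33 genes. The half-width of the 95% interval of the log2 fold change ran from 0.17 (Ramp2) to 0.99 (Wnt2).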

How the data were processed

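Liver RNA of 4 control and 4 shRaly samples was measured on single-colour Agilent arrays, all on 1 slide. The deposited array files give spot intensities made by Feature Extraction, Agilent's software, whose version is 11.5.1.11 in the submitters' processing notes. A file header gives 11.5.1.1 as the version of the grid placement. The processed signal intensity had, per the file headers, its background subtracted and its spatial trend removed, without normalization across arrays, and the deposited series table holds the same values. Here log2 of that signal minus each array's 75th percentile was used. Spots with outlier flags were left out and spots of a probe averaged. A probe was tested if well above background on at least 4 arrays, with at least 3 values a group. Groups were compared with limma 3.58.1 in R 4.3.3, adjusted (Benjamini-Hochberg) over 14874 genes, and the fit was tested on simulated data. The titles do not say that the arrays are separate mice, so a p-value covers only sample-to-sample spread, which may be technical. The 33 genes and all lists were chosen with earlier results of these data known. All members are named, with the 3 genes of smallest p from each of 2 related lists. Further genes of the ligand and pathway list and of the lymphocyte list are also named, some of them after their values were seen. The number of arrays limits the precision. Settings tried were normexp background, quantile and median scaling, other filters and probe choices, the deposited table, a replicate block and leaving out single arrays. Replicate numbers did not pair the arrays.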

Additional observations from a re-analysis of the deposited data

Results flagged for a closer look

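In each group of 4 arrays the highest or lowest value was checked for a large gap to the rest, over the 33 genes and Raly (68 groups). A gap past Dixon's 95% critical value was found in 5 groups, and chance flags about 1 group in 20. Ptprb on control 4 was at 82.3% of the control mean while the other controls were at 106% to 107%. Cdh5 on control 1 was at 74.8%, below the other controls. Stab1 on shRaly 1 was at 95.9%, above the other shRaly arrays. Gata4 on shRaly 3 was at 72.0% and Robo4 on shRaly 4 at 71.4%, each below the other shRaly arrays.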

How the results depend on the processing

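No setting called any of the 33 genes at the adjusted threshold. With a replicate block, which the same-number correlations of -0.07 to 0.14 do not bear out as a pairing, 0 members passed, 7 were lower at an unadjusted p under 0.05, and the calls over all genes were 46 in place of 182. Those calls were 42 with no filter on dim probes and 17 to 282 when single arrays were left out. The number of members lower without overlap was 5 with normexp background correction (6.56% of all genes) and 7 with median scaling (6.92%). It was 3 to 11 when single arrays were left out, where it cannot decrease and where 7.68% to 10.2% of all genes were separated, so this range does not measure stability. The number lower at an unadjusted p under 0.05 ran from 4 to 9 in the leave-outs (7.36% to 11.2% of all genes) and from 6 to 9 in the other settings. The medians kept their sign: leaving out arrays gave -0.22 to -0.12 for all members, -0.26 to -0.17 for the sinusoidal and -0.16 to -0.08 for the general genes. Signs changed for 8 genes, Flt1 (-0.38), Erg (-0.34) and Emcn (-0.22) among them: with normexp, Emcn was 0.0046, Erg 0.10, Esam -0.0008 and Wnt2 0.20; with quantile normalization Plvap was 0.0091; with the mean of probes Kdr was -0.10; and with the dimmest probe, a setting chosen after seeing the data, Flt1 was 0.16, Kdr -0.27, Plvap 0.0026 and Sox17 0.0801. Leaving out single arrays turned the sign of 7 members, with ranges of -0.0494 to 0.122 for Esam, -0.0534 to 0.1547 for Kdr, -0.2996 to 0.0996 for Lyve1, -0.065 to 0.0412 for Plvap, -0.0913 to 0.032 for Sox18, -0.1278 to 0.2029 for Tek and -0.5448 to 0.1111 for Wnt2. The cause was not tested. Raly passed the threshold with normexp (-0.71) and without shRaly 2 (-0.80). Signal over background limits Wnt2, well above background on 4 of the 8 arrays, and Erg, on 7. Flt4 and Emcn were well above background on all 8 but also depended on the background correction. With normexp Flt4 was -0.11 in place of -0.44, and Emcn 0.0046 in place of -0.22.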
